A study of Mus musculus with 8 samples.

Results

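Genes of the immediate early class, 10 of the 19938 genes measured, were followed across 8 mouse livers: Fos, Fosb, Jun, Junb, Jund, Egr1, Atf3, Ier2, Ier3 and Myc. They are a list of gene names whose rule uses no measured value, though it was chosen with earlier results of these data known. Each gene was read by 1 probe set that names that gene alone. Livers came from C57BL6 mice fasted for 17 h and were hybridised, 1 sample per array, to Affymetrix Mouse Gene 1.0 ST arrays, on which several probes spread over a transcript are summarised to 1 value. In the hydrogen water group (4 arrays), mice of the same strain had drunk hydrogen water for 4 weeks from 7 weeks of age before the 17 h fast. The control group (4 arrays) had the same fast, and its titles and descriptions name no hydrogen water. The treatment text is the same for all 8 samples, controls included, so groups were taken from the titles. The labels give neither the sex of the animals nor what the controls drank, and do not say outright that the arrays hold RNA from different animals. Should some share an animal, the spread behind the p-values would in part be technical.

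All values are log2 signals as the authors deposited them, so a difference of 1 is a doubling of signal, and probe sets of different genes are not compared in level. The median log2 signal of an array lay between 5.27 and 5.37 over all probe sets, and arrays correlated at 0.988 to 0.995 over the genes tested. The hepatocyte markers, 6 of which were measured, were read on all arrays, with mean log2 signals of 12.58 to 14.43. No batch or scan date is given in the labels or the table. Precision is limited by the 4 arrays in each group.

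Immediate early genes are switched on within minutes of a stimulus by transcription factors that already sit in the cell, without new protein synthesis. Growth factor and stress kinases act on the promoter-bound factors SRF, ELK and CREB, and most of the genes encode transcription factors with short-lived messenger RNAs. FOS and JUN proteins pair through leucine zippers to form AP-1, ATF3 belongs to the same bZIP superfamily, EGR1 is a zinc finger factor and MYC pairs with MAX. In liver the class is known to respond to partial hepatectomy, tissue handling and reperfusion, which is why the values on single arrays are of interest beside the comparison between groups.

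RefSeq promoter windows of the assembly GRCm38.p6, from 250 bases before to 50 after the annotated start, were given for 7 of the 10 genes. Of these, the windows of the pairs Fos with Atf3 and Jun with Junb are shown, because these pairs had the highest correlations across arrays among the AP-1 and ATF genes (given below). Capitals mark the letters TGACG, found in binding sites of the CREB and ATF factors, or TGANNTCA, a palindrome bound by AP-1 and ATF dimers, each searched on both strands, and no match overlapped another. Each sequence runs 5′ to 3′ on the strand of its gene.

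Fos, chr12:85473640-85473939, plus strand: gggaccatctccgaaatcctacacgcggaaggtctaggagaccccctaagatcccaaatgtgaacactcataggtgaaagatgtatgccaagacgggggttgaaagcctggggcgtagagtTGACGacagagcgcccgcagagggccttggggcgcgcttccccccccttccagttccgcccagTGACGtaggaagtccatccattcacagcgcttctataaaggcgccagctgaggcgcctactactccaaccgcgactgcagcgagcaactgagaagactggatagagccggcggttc
Atf3, chr1:191183284-191183583, minus strand: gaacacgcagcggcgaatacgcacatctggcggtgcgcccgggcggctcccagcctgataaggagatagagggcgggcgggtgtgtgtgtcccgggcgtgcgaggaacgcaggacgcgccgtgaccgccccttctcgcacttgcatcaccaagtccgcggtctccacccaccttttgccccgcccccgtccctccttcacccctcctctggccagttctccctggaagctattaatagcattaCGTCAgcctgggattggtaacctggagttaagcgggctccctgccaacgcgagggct
Jun, chr4:95052173-95052472, minus strand: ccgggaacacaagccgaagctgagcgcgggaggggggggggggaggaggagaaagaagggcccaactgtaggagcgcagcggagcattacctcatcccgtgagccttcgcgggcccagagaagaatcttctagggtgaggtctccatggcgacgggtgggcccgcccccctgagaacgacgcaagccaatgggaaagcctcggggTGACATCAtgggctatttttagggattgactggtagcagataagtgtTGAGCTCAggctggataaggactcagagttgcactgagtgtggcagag
Junb, chr8:84978699-84978998, minus strand: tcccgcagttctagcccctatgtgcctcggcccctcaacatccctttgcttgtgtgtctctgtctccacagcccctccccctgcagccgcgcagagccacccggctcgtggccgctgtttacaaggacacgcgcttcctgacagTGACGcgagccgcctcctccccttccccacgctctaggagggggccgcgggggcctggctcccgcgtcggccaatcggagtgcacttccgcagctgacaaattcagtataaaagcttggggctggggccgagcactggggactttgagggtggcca

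The letters TGACG stood in 4 of the 7 windows (Fos, Fosb, Junb and Atf3), against 20.8% of all 32851 promoter windows of this length. In Fos they began at positions -129 and -66 from the annotated start, and in Atf3 the reverse strand match began at -7. TGANNTCA stood in 2 of the 7 windows (Jun, at -45 and 3, and Jund, at -61), against 14.1% of all windows. The sequence TGACATCA in Jun is the variant AP-1 site through which JUN is known, from human cells, to act on its own gene. TGANTCA, the compact AP-1 site, and the CArG box, the site of SRF, were found in 0 of the 7 windows, against 7.81% and 1.63% of all windows, so these letters are not in these windows. A match is a description of letters and not of binding.

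The comparison asked which transcripts differed between hydrogen water and control livers after a fast. None of the 10 immediate early genes reached an adjusted p under 0.05 (limma, Benjamini-Hochberg adjustment across the 19938 genes), and 0% of all genes did, the lowest adjusted p over all genes being 0.558. In 10 of 10 members the ranges of the groups overlapped. Most genes overlapped in this way, as groups lay wholly apart in 3.76% of all genes. With hydrogen water, 6 members had a mean above that of controls and 4 a mean below it, and 48.7% of all genes had a difference above 0. The median difference of the members was 0.01, beside 0.00 over all genes, with a median SE of 0.18, beside 0.12. At an unadjusted p under 0.05 there was 1 member, Egr1, that is 1 of 10 beside 7.17% of all genes. The plot of values on each array shows groups that overlap in all 10 genes.

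**Figure D1:**
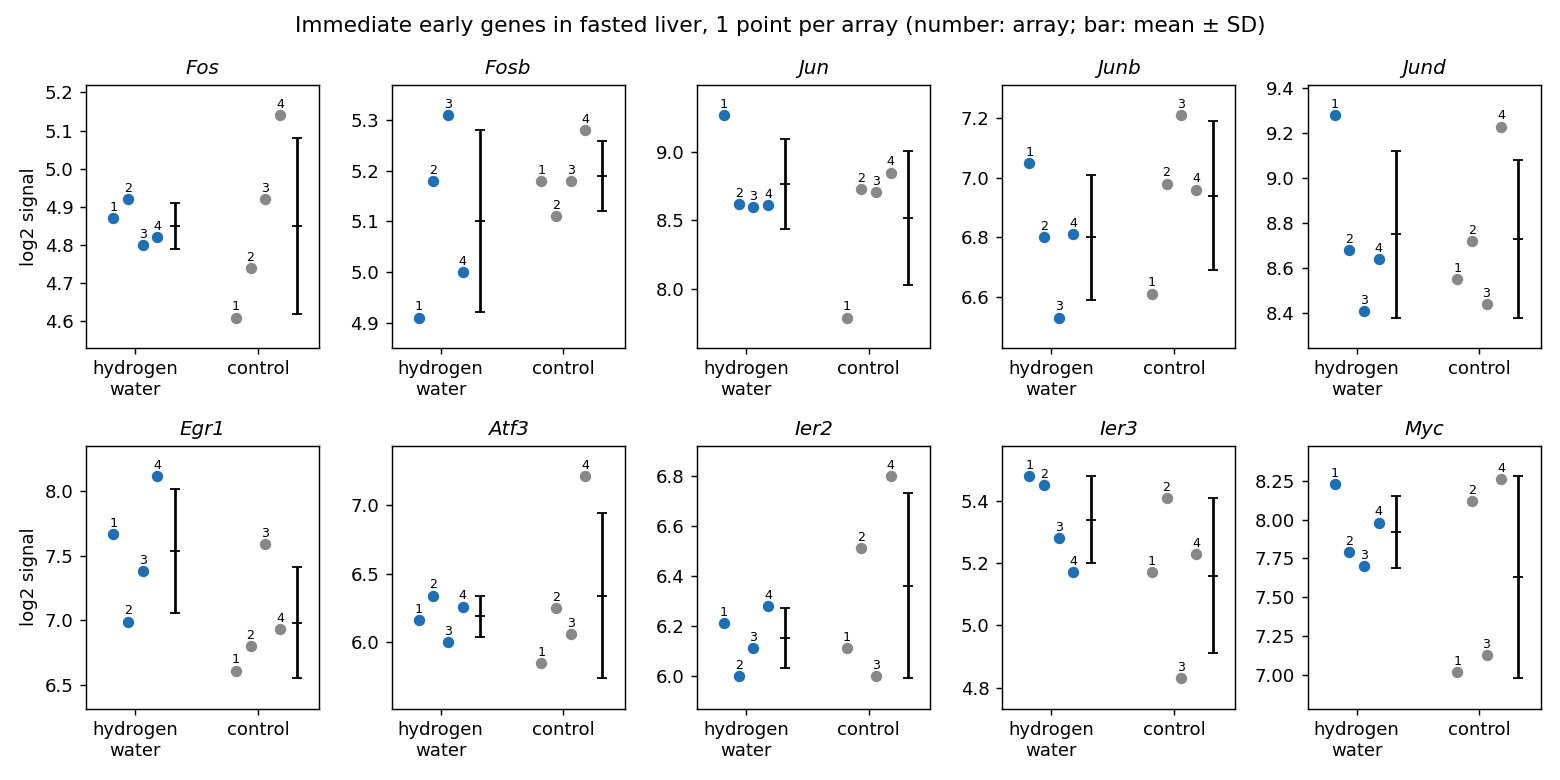
Log2 signal (vertical axis, a separate scale for each gene) of the 10 immediate early genes on each hydrogen water array (blue, 4 points) and control array (grey, 4 points), numbered by array, with the mean ± SD of the group as a black bar. Control 4 is the highest of the 8 arrays for Fos, Atf3, Ier2 and Myc, control 1 is the lowest of the 8 for Fos, Jun, Egr1, Atf3 and Myc, and the groups overlap in every panel.

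Of the FOS family, whose proteins need a JUN partner to bind DNA stably, Fos (transcript cluster 10397346) had log2 signals of 4.87, 4.92, 4.80 and 4.82 on hydrogen water arrays 1 to 4, against 4.61, 4.74, 4.92 and 5.14 on control arrays 1 to 4. The hydrogen water arrays lay close together inside the range of the controls. Hydrogen water arrays averaged 4.85 ± 0.06 and controls 4.85 ± 0.23 (SD, n = 4 each), which gives a difference of 0.00 (95% interval -0.26 to 0.27, limma adjusted p = 1). With 1 array left out at a time it lay between -0.08 without control 1 and 0.10 without control 4. Fosb (transcript cluster 10560481), which encodes a second FOS protein, had 4.91, 5.18, 5.31 and 5.0 with hydrogen water, against 5.18, 5.11, 5.18 and 5.28 in controls. Here the wider spread lay with hydrogen water, whose arrays 1 and 4 were below all controls. The difference of Fosb was -0.09 (95% interval -0.33 to 0.16, limma adjusted p = 0.913), with -0.16 without hydrogen water 3 and -0.02 without hydrogen water 1 as the extremes when 1 array was left out. Fos and Fosb, with Ier3, were the 3 members whose mean signal did not exceed the median gene level of 5.87, and the table holds no call of whether a probe set was above background.

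Of the JUN family, Jun (transcript cluster 10514466), an AP-1 subunit needed for normal liver regeneration in mice, had 9.27, 8.62, 8.60 and 8.61 with hydrogen water, against 7.79, 8.73, 8.71 and 8.85 in controls. In each group 3 arrays lay within a narrow band, with hydrogen water 1 far above and control 1 far below it. The difference was 0.26 (95% interval -0.24 to 0.75, limma adjusted p = 0.866), with 0.01 without control 1 and 0.37 without control 4 as the extremes. Junb (transcript cluster 10580282), whose product often opposes JUN, had 7.05, 6.80, 6.53 and 6.81 with hydrogen water, against 6.61, 6.98, 7.21 and 6.96 in controls. Of the 4 hydrogen water arrays, 3 were below the 3 highest controls, and hydrogen water 1 was not. The difference was -0.14 (95% interval -0.46 to 0.17, limma adjusted p = 0.885), with extremes of -0.25 without control 1 and -0.05 without control 3, and -0.06 without hydrogen water 3. Jund (transcript cluster 10572456), the family member that resting cells express, had 9.28, 8.68, 8.41 and 8.64 with hydrogen water, against 8.55, 8.72, 8.44 and 9.23 in controls. One array of each group, hydrogen water 1 and control 4, stood above the other 3. The means differed by 0.02 (95% interval -0.42 to 0.46, limma adjusted p = 0.993), with extremes of -0.16 without hydrogen water 1 and 0.18 without control 4.

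Egr1 (transcript cluster 10454782), a zinc finger factor induced through SRF and ELK, had the largest difference of the 10. Its log2 signals were 7.67, 6.99, 7.38 and 8.12 with hydrogen water, against 6.61, 6.80, 7.59 and 6.93 in controls. All 4 hydrogen water arrays were above 3 of the 4 controls, and control 3 exceeded 2 hydrogen water arrays. Hydrogen water arrays averaged 7.54 ± 0.48 and controls 6.98 ± 0.43 (SD, n = 4 each), and the means differed by 0.56 (SE 0.24, 95% interval 0.03 to 1.09). The unadjusted p of limma was 0.0406 and the adjusted p 0.687, so Egr1 did not pass. The difference was 0.37 without hydrogen water 4, 0.43 without control 1 and 0.76 without control 3. The unadjusted limma p was under 0.05 in 10 of 16 alternatives (range 0.00493 to 0.281), including all that kept the 8 arrays. Those fits, the replicate block among them, reuse the same 8 arrays, so their count is not separate support. With 1 array left out, it stayed under 0.05 only without hydrogen water 2, hydrogen water 3 or control 3. It was 0.0877 without hydrogen water 1, 0.135 without hydrogen water 4, and 0.121, 0.0901 and 0.0786 without controls 1, 2 and 4. The highest, 0.281, was without both control 1 and control 4.

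The arrays with the most Egr1 signal were hydrogen water 4 and hydrogen water 1, followed by control 3. Markers of Kupffer cells and other macrophages, which also express Egr1, were above the control mean in 12 of 12 measured members with hydrogen water. Over all genes the share with a difference above 0 was 48.7%. The median difference of these markers was 0.35, and 0 passed the adjusted test. Their summed linear signal was 1437 to 2485 on hydrogen water arrays, against 1166 to 1938 on control arrays. Centred per gene, the mean of the list was -0.14, 0.10, 0.20 and 0.60 on hydrogen water arrays 1 to 4, against -0.26, -0.25, 0.14 and -0.40 on control arrays 1 to 4. It was highest on hydrogen water 4, as Egr1 was, and control 3 was the highest control in both. Hydrogen water 1, second for Egr1, was below the list's mean. A peak on hydrogen water 4 is not particular to macrophage markers. Some other lists, though not all, were also highest there, such as hepatocyte markers (0.08) and glucocorticoid targets (0.43). Of the defining markers, Clec4f averaged 8.41 ± 0.19 on hydrogen water arrays and 7.98 ± 0.20 on control arrays (SD, n = 4 each), and 0 values of the list were at 0. Markers of sinusoidal endothelial cells were likewise above the control mean in 10 of 10 measured members, with a summed linear signal of 3042 to 4831 on hydrogen water arrays, against 2654 to 3904 on control arrays. Centred per gene, that list averaged -0.19, 0.42, 0.28 and 0.13 on hydrogen water arrays 1 to 4, against 0.10, -0.46, -0.26 and -0.02 on control arrays 1 to 4, so it was highest on hydrogen water 2 and control 1, the lowest array of each group for Egr1. In the other cell type lists, differences above 0 were found in 3 of 6 hepatocyte, 6 of 8 neutrophil and 3 of 8 stellate cell and fibroblast markers. The same held for 1 of 5 cholangiocyte markers, 4 of 8 of T, NK and B cells and 2 of 3 of erythroid cells. The part of Kupffer or endothelial cells in the Egr1 values was not tested, and in bulk tissue more cells of a type and more RNA per cell cannot be told apart.

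Atf3 (transcript cluster 10361091), a stress-induced repressor that can pair with JUN proteins, had 6.16, 6.34, 6.0 and 6.26 with hydrogen water, against 5.85, 6.25, 6.06 and 7.21 in controls. Control 4 stood apart above all other arrays. The difference was -0.15 (95% interval -0.67 to 0.37, limma adjusted p = 0.931) with extremes of -0.31 without control 1 and 0.14 without control 4. Ier2 (transcript cluster 10580183), a small nuclear protein gene, had 6.21, 6.0, 6.11 and 6.28 with hydrogen water, against 6.11, 6.51, 6.0 and 6.80 in controls. Controls 2 and 4 were above every hydrogen water array, and controls 1 and 3 were not. The difference was -0.21 (95% interval -0.56 to 0.15, limma adjusted p = 0.845), with extremes of -0.33 without control 3 and -0.06 without control 4. Ier3 (transcript cluster 10444890), an early response gene linked to cell survival, had 5.48, 5.45, 5.28 and 5.17 with hydrogen water, against 5.17, 5.41, 4.83 and 5.23 in controls. The lowest array was control 3, and the difference was 0.18 (95% interval -0.11 to 0.48, limma adjusted p = 0.818) with all arrays, 0.07 without control 3 and 0.27 without control 2.

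Myc (transcript cluster 10424400), a growth regulator that is induced when hepatocytes enter the cell cycle, had 8.23, 7.79, 7.70 and 7.98 with hydrogen water, against 7.02, 8.12, 7.13 and 8.26 in controls. The controls fell into a low pair, 1 and 3, and a high pair, 2 and 4, with 3 of the hydrogen water arrays between them. Hydrogen water arrays averaged 7.92 ± 0.23 and controls 7.63 ± 0.65 (SD, n = 4 each), and the means differed by 0.29 (95% interval -0.27 to 0.86, limma adjusted p = 0.867). It was 0.09 without control 1 and 0.50 without control 4.

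**Figure D2:**
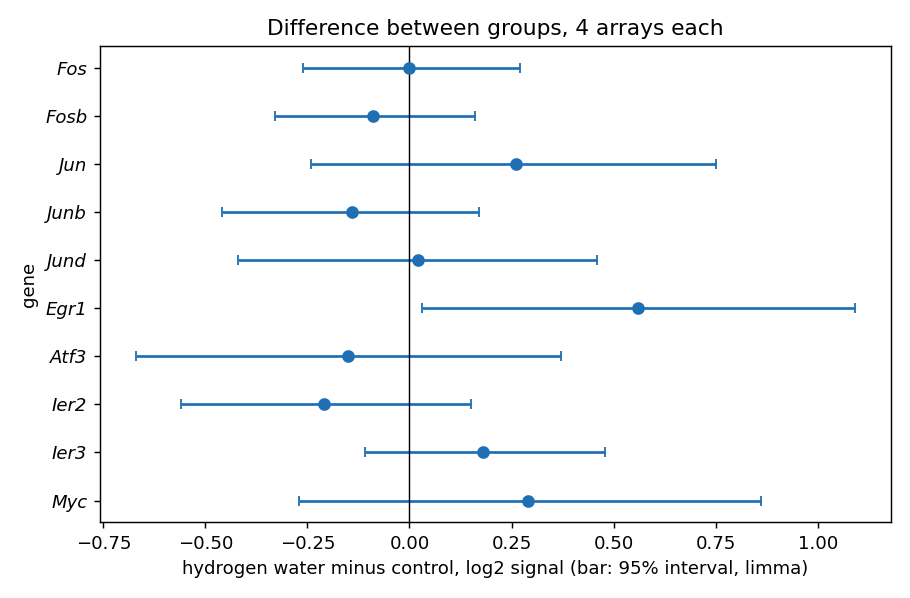
Difference in log2 signal, hydrogen water minus control (horizontal axis), for each of the 10 genes, with the 95% interval from limma as a bar (4 arrays per group). The interval of Egr1, 0.03 to 1.09, excludes 0 before adjustment, and the other 9 intervals include 0.

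The members varied more between arrays of a group than most genes did. The within-group SD of the 10 genes lay between 0.14 and 0.49, with a median of 0.32, beside a median of 0.18 over all genes and 0.19 over genes above the median level. In 8 of 10 members it exceeded the median of all genes. By group, 7 of 10 members had a larger SD in controls, beside 52.7% of all genes, and the median ratio of control SD to hydrogen water SD was 1.59 for the members, beside 1.05 for all genes. Atf3 had an SD of 0.15 with hydrogen water and 0.60 in controls, Fos 0.06 with hydrogen water and 0.23 in controls, and Ier2 0.12 with hydrogen water and 0.37 in controls. Fosb ran the other way, with 0.18 under hydrogen water and 0.07 in controls, and the ratio was also below 1 for Egr1 (0.90) and Jund (0.94). These ratios carry no test, and no difference in spread between the groups is drawn from them.

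Set against the mean of its group, hydrogen water 3 was low in 9 of 10 members, the exception being Fosb at 0.21, with a median deviation of -0.17. Hydrogen water 1 was high in 8 of 10, with a median of 0.13 and its largest deviations in Jund (0.53) and Jun (0.50). Among the controls the deviations were larger: control 4 was high in 9 of 10, the exception being Egr1 at -0.05, with a median of 0.31 and a highest one of 0.87 for Atf3. Control 1 was low in 9 of 10, the exception being Ier3 at 0.01, with a median of -0.29 and a lowest one of -0.73 for Jun. The other 4 arrays were mixed, with 4 or 5 of the 10 members above the group mean. Over all genes, the median deviation of an array lay between -0.01 and 0.01. The map of deviations shows the columns of control 1 and control 4 in opposite colours.

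**Figure D3:**
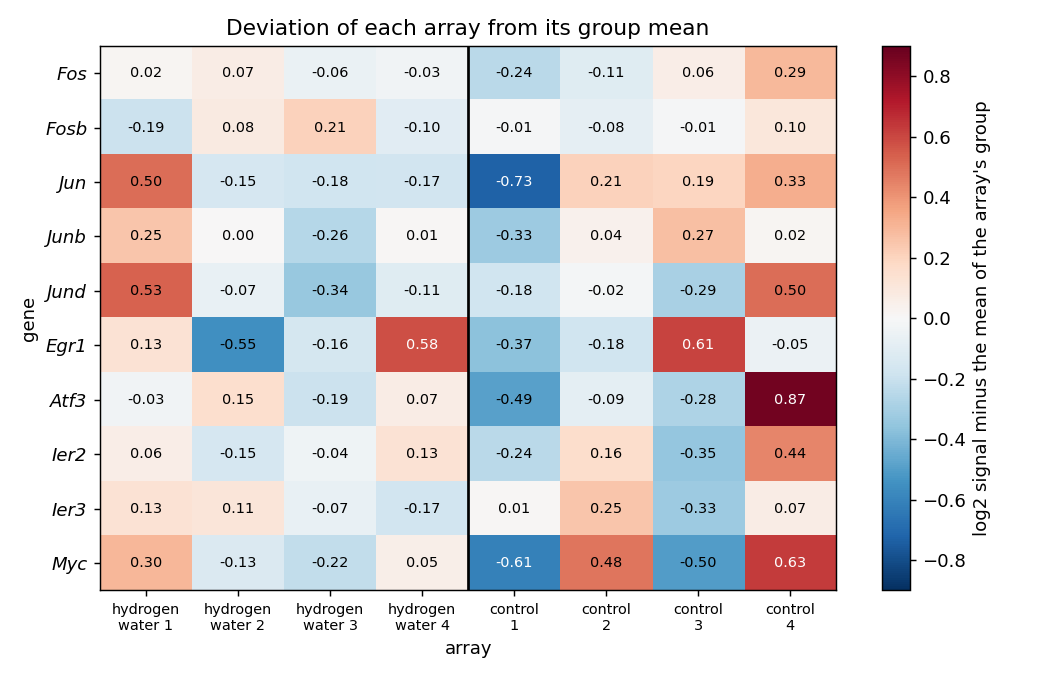
Log2 signal of each gene (rows) on each array (columns, hydrogen water left and control right of the black line) minus the mean of the array's group, with the value printed in the cell (red above, blue below). Control 4 is above its group mean in 9 of 10 genes and control 1 below it in 9 of 10, while Egr1 deviates most upward on hydrogen water 4 (0.58) and control 3 (0.61).

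Co-variation was measured over the 8 arrays as the correlation of these deviations for all 45 pairs of members, so that a difference between groups does not enter. The median Pearson r of the 45 pairs was 0.36, with a range of -0.70 to 0.92, beside a median of 0.00 over all pairs of genes and 0.05 over pairs of genes above the median level. The r exceeded 0.5 in 18 of 45 pairs (40%), beside 14.6% of all gene pairs and 19.2% of pairs above the median level. Pairs share arrays and genes and are not independent, so these shares are a description. In an exact permutation test of each pair (two-sided, arrays permuted within groups, smallest possible p 0.00174), 4 of 45 pairs had an unadjusted p under 0.05. After Benjamini-Hochberg adjustment over the 45 pairs computed, 0 remained (lowest adjusted p = 0.156 by the same exact test).

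The highest correlation was that of Ier2 with Myc, at r = 0.92 (Spearman's rho 0.93), with an exact permutation p of 0.0399 for r and 0.0799 for rho (both two-sided, adjusted p = 0.346 and 0.425). Without controls 2 and 4, the 2 arrays farthest from the median of Ier2, r was 0.52. Fos with Atf3 had r = 0.87 and rho = 0.71, with exact permutation p = 0.0538 and 0.0851 (adjusted p = 0.346 and 0.425), and r was 0.03 without controls 1 and 4, so this relation rests on those arrays. Jun with Junb had r = 0.83 and rho = 0.81, with exact permutation p = 0.0451 and 0.0503 (adjusted p = 0.346 and 0.425), and r was -0.35 without control 1 and hydrogen water 1, on which it likewise rests. The letters of the promoters shown above were not used in any of these values.

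The 2 pairs with the lowest p both held Myc and kept a similar r without the 2 farthest arrays. Jun with Myc had r = 0.70 and rho = 0.76, with exact permutation p = 0.00521 and 0.0139 (adjusted p = 0.156 and 0.425), and r was 0.68 without control 1 and hydrogen water 1. Jund with Myc had r = 0.77 and rho = 0.81, with exact permutation p = 0.00694 and 0.0243 (adjusted p = 0.156 and 0.425), and r was 0.71 without control 4 and hydrogen water 1. Atf3 also had an r above 0.5 with Ier2 (0.81), Myc (0.75), Jund (0.67) and Jun (0.51), none of which passed the adjusted test.

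**Figure D4:**
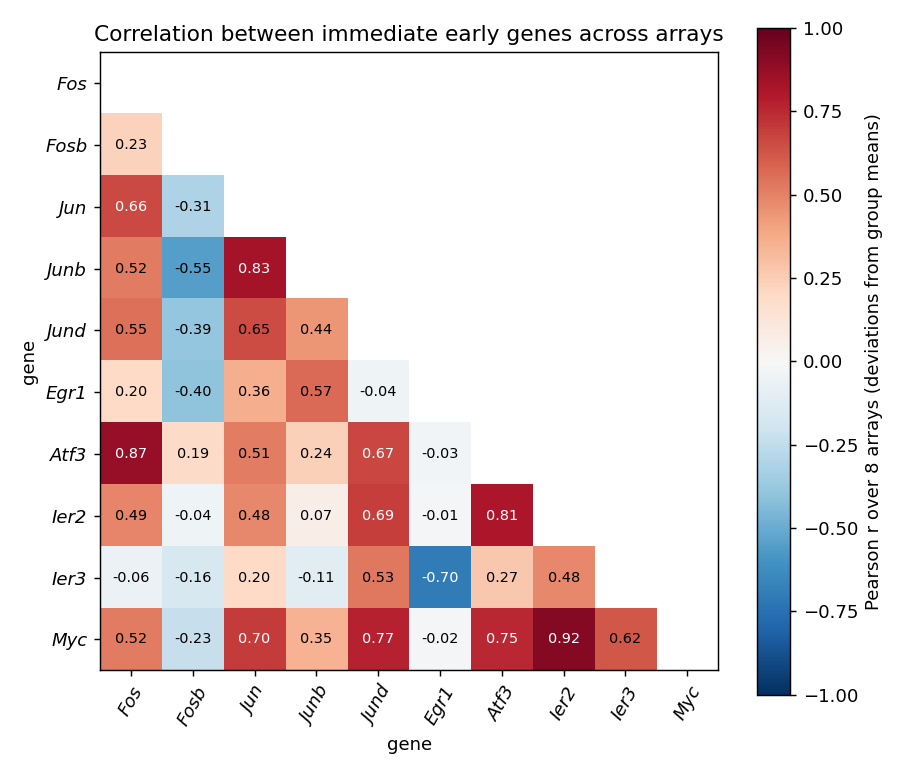
Pearson r over the 8 arrays, on deviations from group means, for each of the 45 pairs of genes (rows and columns, red positive, blue negative, value printed). The pairs among Fos, Jun, Junb, Jund, Atf3, Ier2 and Myc are all positive, from 0.07 to 0.92, whereas Fosb, Egr1 and Ier3 have negative values with other members.

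Fosb, Egr1 and Ier3 had the lowest median r with the other members. Fosb had a positive r with 2 of the other 9 members and a median r of -0.23 with them. Egr1 had a positive r with 3 of 9 and a median of -0.02, its highest being 0.57 with Junb. Ier3 had a positive r with 5 of 9 and a median of 0.20. Its r with Myc (0.62), Jund (0.53) and Ier2 (0.48) was above that of some pairs among the other 7 genes, such as Junb with Ier2 (0.07). With Egr1 it had the lowest r of all pairs, -0.70 (rho -0.55, exact permutation p = 0.0816 and 0.212, adjusted p = 0.367 and 0.615), which was -0.72 without control 1 and hydrogen water 4. Among the other 7 genes, a set chosen after the values were seen, 21 of 21 pairs had a positive r.

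The median r moved with the arrays included. Left out one at a time, hydrogen water arrays 1 to 4 gave 0.35, 0.38, 0.47 and 0.44, and control arrays 1 to 4 gave 0.20, 0.42, 0.51 and 0.32. Leaving out control 1 and control 4 together gave 0.07, an alternative chosen after seeing the data, and no other pair of arrays was left out for comparison. The scatter of pairs shows control 1 and control 4 at opposite ends of the Fos and Atf3 axes.

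**Figure D5:**
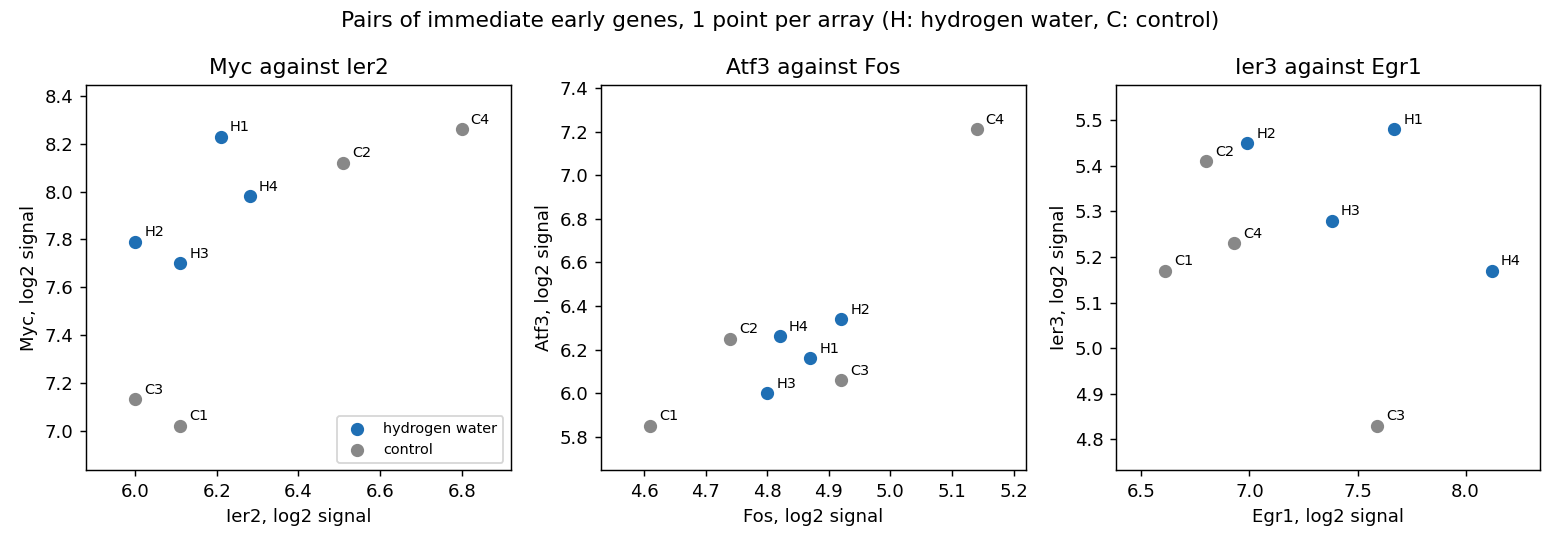
Log2 signal of Myc against Ier2, Atf3 against Fos and Ier3 against Egr1 on each of the 8 arrays (blue hydrogen water, H1 to H4; grey control, C1 to C4). In the Atf3 plot the 4 hydrogen water arrays sit between 4.80 and 4.92 on the Fos axis, with control 4 at 5.14 and control 1 at 4.61, and in the Ier3 plot control 3 is lowest at 4.83.

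Likeness of pattern was likewise measured on deviations from group means, so that a difference between groups does not lower it. The genes most like Fos over the 8 arrays, among 9532 named protein-coding genes above the median level, were Mtnr1a (r = 0.97), Znrd1 (0.96), Prr7 (0.95), Espnl (0.95) and Cyp8b1 (0.94), and 10 genes exceeded 0.9. Mtnr1a, a melatonin receptor gene, had 6.65, 6.85, 6.72 and 6.46 with hydrogen water, against 6.41, 6.78, 7.08 and 7.63 in controls. It was lowest on control 1 and highest on control 4, as Fos was. Those most like the mean of the 10 members, each scaled to the same spread, were Gpat3 (0.97), Nupr1l (0.95), Tmem191c (0.94), Socs3 (0.94) and Crcp (0.93). Socs3, a feedback inhibitor of cytokine signalling, had 6.99, 6.67, 6.52 and 6.39 with hydrogen water, against 6.37, 6.91, 6.52 and 7.48 in controls, again with control 4 highest and control 1 lowest. These r are a description of 8 arrays, chosen as the highest of many, and say nothing of the levels of the groups: Cyp8b1 had a difference of 0.53 (limma adjusted p = 0.617), against 0.00 for Fos.

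Other genes of the response were followed by lists, in which 0 genes passed the test over all genes. An unadjusted p under 0.05 is given as a count beside 3.60% of all genes on the higher and 3.57% on the lower side. The 3 genes named per list are those with the smallest unadjusted p. Groups that do not overlap are to be read beside 3.76% of all genes. Of 12 measured AP-1 partners and related bZIP factors, 0 were higher and 1 lower at that level, with a median difference of 0.08. Maff, a small MAF protein gene, differed by -0.32 (SE 0.14), Atf7 by 0.27 (SE 0.15) and Jdp2, an AP-1 repressor gene, by 0.18 (SE 0.15). Of 22 further immediate early transcription factors, 0 were higher and 3 lower (Nr4a2, Klf10 and again Maff, which stands in both lists), with a median of -0.04. The orphan nuclear receptor gene Nr4a2 had 5.60, 5.51, 5.50 and 5.57 with hydrogen water, against 5.81, 5.83, 6.09 and 5.91 in controls. Its groups did not overlap, and its difference of -0.37 (SE 0.10) had a limma adjusted p of 0.619. All hydrogen water values of Nr4a2, and those of controls 1 and 2, lay below the median gene level of 5.87. The means of Maff, 5.37 with hydrogen water and 5.70 in controls, also lay below that level. Klf10, a TGF-beta-inducible zinc finger gene, differed by -0.82 (SE 0.34, limma adjusted p = 0.687) and was highest on control 4 at 9.11.

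Of 22 feedback inhibitors, 2 were higher and 0 lower, with a median difference of 0.08. Trib1 differed by 0.34 (SE 0.13), the kinase gene Sik1 by 0.66 (SE 0.30) and the phosphatase gene Dusp5 by 0.25 (SE 0.12). Of 19 other early effectors, 2 were higher and 0 lower, with a median of -0.06. Ccn2, a matricellular protein gene and YAP target, differed by 0.45 (SE 0.18) and Arc by -0.21 (SE 0.12). The polo-like kinase gene Plk3 had 11.35, 10.68, 10.67 and 10.98 with hydrogen water, against 9.55, 10.97, 9.67 and 10.66 in controls, a difference of 0.71 (SE 0.29, limma adjusted p = 0.687). Its controls split into the same low pair, 1 and 3, and high pair, 2 and 4, as those of Myc.

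Upstream, 18 kinases and promoter-bound factors were measured, of which 3 were higher and 0 lower, with a median of 0.09. Mapk14, the p38 alpha kinase gene, differed by 0.39 (SE 0.13), Braf by 0.34 (SE 0.12) and Elk4, an SRF partner gene, by 0.37 (SE 0.15), and all 3 were highest on hydrogen water 4. Of 11 MYC partners and antagonists, 1 was higher and 1 lower, with a median of 0.00. Mga differed by 0.47 (SE 0.18), Mycl by 0.12 (SE 0.12) and Mycn by -0.27 (SE 0.10), the last with 5.10, 5.03, 4.87 and 4.82 under hydrogen water, against 5.21, 5.23, 5.26 and 5.19 in controls. The groups of Mycn did not overlap, and its limma adjusted p was 0.675. All values of Mycn lay below the median gene level of 5.87, with no call of whether they were above background.

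Genes of other acute stress responses were read for the arrays on which the immediate early genes were high or low. Of 9 inducible heat shock genes, 1 was higher and 0 lower, with a median difference of 0.12. Hspb1 differed by 0.70 (SE 0.19), Hsp90aa1 by 0.27 (SE 0.13) and Bag3 by 0.22 (SE 0.16), with limma adjusted p between 0.618 and 0.824. Centred per gene, these 9 genes averaged 0.20, 0.09, -0.08 and 0.17 on hydrogen water arrays 1 to 4, against -0.01, 0.21, -0.11 and -0.47 on control arrays 1 to 4. Control 4, the highest control for 7 of the 10 immediate early genes, thus had the lowest heat shock mean.

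Of 14 glucocorticoid targets, 2 were higher and 0 lower, with a median of 0.05. Fkbp5, a cochaperone of the glucocorticoid receptor, had 9.95, 9.67, 9.79 and 10.46 with hydrogen water, against 9.01, 9.27, 9.30 and 9.62 in controls, a difference of 0.67 (SE 0.17, limma adjusted p = 0.618) with no overlap of groups. The metallothionein genes Mt1 and Mt2 differed by 0.58 (SE 0.25) and 0.63 (SE 0.30). The list mean was 0.05, -0.04, -0.15 and 0.43 on hydrogen water arrays 1 to 4, against -0.41, -0.10, 0.09 and 0.14 on control arrays 1 to 4. Control 1, the lowest control for 6 of the 10 immediate early genes, had the lowest glucocorticoid mean, and hydrogen water 4 the highest. Per1, Klf9, Dusp1 and Sgk1 of this list also stand in the early gene lists above, so it is not separate from them. Of 13 hypoxia targets, 1 was higher and 2 lower, with a median of -0.09. Ddit4, an inhibitor of mTOR signalling, differed by 1.05 (SE 0.45), Egln3 by -0.44 (SE 0.16) and Car9 by -0.58 (SE 0.14, no overlap of groups, limma adjusted p = 0.617). All values of Car9 lay below the median gene level of 5.87. The list mean was highest on control 2 at 0.31. Handling at dissection was not recorded in the labels, and its part in any of these values was not tested.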

How the data were processed

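RNA from 8 fasted mouse livers was extracted with an RNeasy Mini kit and amplified and labelled with the Ambion WT Expression kit, per the labels' protocols. The authors deposited 1 table of log2 signals. Per the submitters' processing notes, Affymetrix Expression Console was used; the sources used here give neither its background, normalization and summary method nor a genome build, and the log2 scale was read from the values. Of 35556 probe sets, 21789 had 1 gene symbol. Symbols were updated through RefSeq (GRCm38.p6, names only, 19856 of 19938 genes matched), and a gene with several probe sets was read by the one with the highest mean. No filter on level was used. The test was limma's moderated test (version 3.58.1, R 4.3.3, lmFit then eBayes, 2 groups, two-sided, residual df 6, prior df 5.88), with Benjamini-Hochberg adjustment over all 19938 genes. Values were already on a log scale, so no pseudocount was needed.

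The members, the lists (195 of 209 list genes measured) and the rule for named genes (the members, the 5 most like patterns, 3 genes per pathway list with the smallest unadjusted p) were chosen with earlier results of these data known. Cell type lists served to check the arrays and as a description beside the Egr1 values, without a test of any list. Same-numbered arrays of the groups had correlations of -0.16 to 0.06 in their deviations. Such values cannot show whether equal numbers mark samples handled together. The titles name no pairing, and none was used in the main fit. In simulated data for hydrogen water against control (19938 genes, 200 changed per run), the test recovered 34.6% of genes changed by 0.5 and 90.4% of those changed by 1, with 4.96% of calls false. The changed genes were drawn at random from all genes, whose median within-group SD was 0.18. The members had a median of 0.32, so these shares do not carry over to them. Python 3.11.15, with numpy 2.4.6, served for the correlations, their permutation tests and the promoter search, and matplotlib 3.10.9 for the plots.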

Additional observations from a re-analysis of the deposited data

Results flagged for a closer look

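Jun was the gene with single arrays far from the rest of their group. On hydrogen water 1 its log2 signal was 9.27, and the gap to the next array was 0.969 of the range of its group. On control 1 it was 7.79, with a gap of 0.868 of the range. Both exceed Dixon's critical value at the 95% level for 4 samples. Of 20 groups tested (10 genes in each of the groups), these were the 2 with such an array, and chance gives about 1 in 20.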

How the results depend on the processing

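The count of genes past the adjusted threshold was 0 with all arrays and 0 under the filter on dim genes, averaging the probe sets of each gene, quantile normalization, median centring, array weights, a trended and robust variance, the replicate block and without both control 1 and control 4 (chosen after seeing the data). Leaving out 1 array at a time gave 0 to 1, the calls being Sucnr1 without control 2 and Aqp8 without control 3, neither an immediate early gene. The median difference of the members lay between -0.06 and 0.16 when arrays were left out in turn (0.02 over the 7 members that pass the dim filter, which removes Fos, Fosb and Ier3). The median r over the 45 pairs lay between 0.20 and 0.51 without single arrays, was 0.07 without both control 1 and control 4, and was 0.28 with group means kept and 0.43 with the replicate block. As the titles name no pairing by replicate number, the block was run only as an alternative, and it is counted among those of Egr1. The block changed no call among the 10 genes. With it, 1313 genes had an unadjusted limma p under 0.05, against 1429 without it. Of the values of single members under alternatives, 146 kept their direction and stayed above the adjusted threshold. The other 11 changed sign. Fos did so at -0.01 with median centring and in 4 of 8 alternatives without single arrays (full range -0.08 to 0.10). Jund did so at -0.05 with array weights and in 3 of 8 alternatives without single arrays (full range -0.16 to 0.18). Atf3 did so in 1 of 8 alternatives without single arrays, at 0.14 without control 4 (full range -0.31 to 0.14). Atf3 also changed sign, to 0.04, without both control 1 and control 4. The cause was not tested beyond the arrays left out. The 4 arrays per group limit what could be detected.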
